A study of Mus musculus with 21 samples.

Results

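The sites described here are 24 windows of 100 kb on chromosomes other than chromosome 12. In them the authors' alignment placed joins of the broken Sμ switch region again and again in CH12F3 cells. Whether the joined bases came from these windows or from similar sequence elsewhere was not tested. A window was kept when it held at least 8 joins from at least 5 libraries over all 21 libraries. The 24 windows held 643 joins of 18834 off chromosome 12 and of 40530 in all, or 3.41% of the joins off chromosome 12. CH12F3 is a murine B lymphoma line in which cytokines induce switching to IgA, and all 5 groups of cells had received IL4, TGF-β and anti-CD40 for 72 h. In CSR-HTGTS-seq, reads start in a fixed DNA end (the bait, here at the 5′ side of Sμ on chromosome 12) and run into the partner of the join (the prey).

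The i3CBEc-3CBEdel group (3 libraries, genotype label i3CBEc-3'CBEs-delta) carried an insertion of 3 CTCF-binding elements, or CBEs, and a deletion of the CBEs at the 3′ end of the IgH locus. The Iadel-i3CBEc group (3 libraries, label Ialpha-delta-i3CBEc) carried the 3 CBEs downstream of Cγ2a in cells without Iα, from which transcription through Sα starts. The Iadel group (6 libraries, label I-alpha-delta) lacked Iα and had no insertion. The i3CBEc group (3 libraries) carried the 3 CBEs, labelled as convergent in orientation, with Iα present. The NCdel group (6 libraries, label CH12F3NC-delta) is the line that the labels give as the background of the Iadel and i3CBEc cells, in which the non-coding IgH allele lacks the part from Sμ to Sα. The labels do not say how many clones stand for a genotype or whether libraries came from separate cultures, so p-values measure only the spread between these libraries.

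Class switching starts when the enzyme AID deaminates cytosines in switch regions, long repeats rich in the letters AGCT that lie before each constant gene of the antibody heavy chain. Breaks in Sμ are normally joined to breaks in another switch region of the same chromosome, mostly by end joining. A part of the breaks joins to other chromosomes, and AID is known to act also at a set of genes outside the antibody loci.

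After the removal of reads deposited in more than 1 Iadel library, the libraries held 1180 to 3513 junctions, and 158 to 2664 of these lay off chromosome 12. The share off chromosome 12 ran between 8.91% in i3CBEc-3CBEdel library 3 and 75.8% in Iadel library 2. The reads came from 8 sequencing runs. Run 490 held Iadel-i3CBEc libraries 1 to 3, Iadel libraries 4 to 6 and NCdel libraries 1 to 3, and no other run held more than 1 group, so run and group cannot be told apart outside run 490.

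The sites are named by chromosome, with a letter for their order along it, and fall into 4 kinds that were set after their reads had been seen. Site 14a, in chr14:32400001-32500000, held 293 joins, or 45.6% of the joins at all sites. At 12 sites at least 50% of the joins had the switch-repeat word GAGCTG (or CAGCTC, its other strand) in the prey, and these AGCT-repeat sites held 154 joins. At 4 sites, without that word, at least 50% of the joins shared a run of 26 bases with prey reads placed on another chromosome, and these repeated-sequence sites held 111 joins. The other 7 sites, called spread sites here, held 85 joins.

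In the reads of site 14a the same stretch of chromosome 14 began and ended next to AGCT repeats. The first and the last bases of the stretch, as most reads have them (mm9, plus strand, 5′ to 3′), are given here with the 18 bases used as search words in capitals.
First bases, chr14:32427222-32427301: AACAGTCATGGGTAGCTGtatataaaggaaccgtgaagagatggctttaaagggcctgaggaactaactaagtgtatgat
Last bases, chr14:32427477-32427536: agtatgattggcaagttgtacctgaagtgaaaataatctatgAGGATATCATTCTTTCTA
The next 2 reads enter the stretch at its first base, with bait bases first, the bases between bait and prey in capitals, and the first 20 bases of the stretch last.
A join with 15 bases between: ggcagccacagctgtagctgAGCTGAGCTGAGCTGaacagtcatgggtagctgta
A join with 14 bases between: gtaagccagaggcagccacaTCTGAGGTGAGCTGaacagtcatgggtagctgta
Another read leaves the stretch at its last base, with the 40 bases that follow in capitals.
A read that runs on past chr14:32427536: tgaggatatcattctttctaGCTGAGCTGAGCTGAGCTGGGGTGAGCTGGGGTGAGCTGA
One more read was placed by the authors on chromosome 12, in Sμ (minus strand, chr12:114662717-114662994), and goes on with the first bases of the stretch in capitals.
A read placed in Sμ: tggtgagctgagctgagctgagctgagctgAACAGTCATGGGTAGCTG

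Of the 293 joins at site 14a, 290 lay in the 315 bases of this stretch, between positions 32427222 and 32427536, at 126 different positions. The stretch is called the chromosome 14 segment below. It was joined in all 21 libraries, and 272 of its joins were on the plus strand against 18 on the minus strand. A single base, position 32427222, held 86 joins from 20 libraries, all on the plus strand. The first base of the segment was set at this fullest position, and the lowest join of the site, at 32427221, lay just outside. The single position with the next most joins in the segment, 32427225, held 10 joins from 7 libraries, and the last base, 32427536, held 8 joins on the minus strand from 6 libraries. Over the reads of the segment aligned without gaps or clipped ends, 99.8% of the bases were the letter that most of them had. Reads with inserted or missing bases within the alignment were left out of this count.

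**Figure D1:**
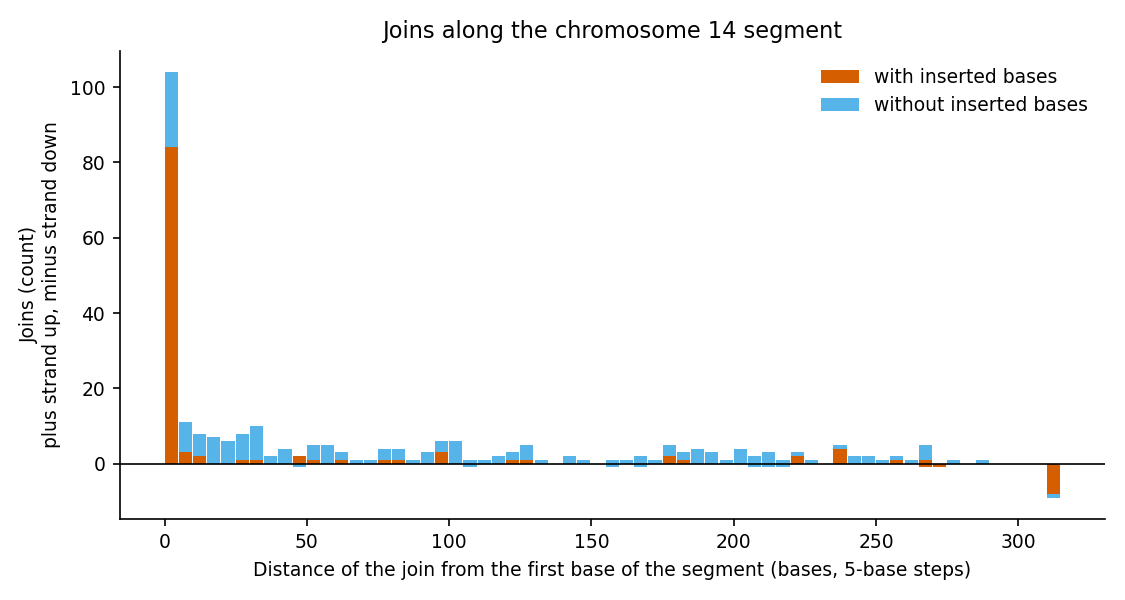
Joins along the chromosome 14 segment, counted over all libraries in steps of 5 bases from its first base, with plus-strand joins drawn upward and minus-strand joins downward. Joins with inserted bases fill most of the first step, where 86 joins fell on a single base, and return at the last base, where 8 minus-strand joins lay.

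Bases between bait and prey were concentrated at the edges of the segment. At its first base 77 of 86 joins (89.5%) had inserted bases, with a median of 10 bases and at most 29. Of the 60 inserts there with at least 5 bases, 57 held AGCT. At all other positions of the segment 46 of 204 joins (22.5%) had inserted bases. At the other positions, by distance, 1 to 105 bases from the first base, 19.8% of 116 joins had them, at 106 to 210 bases 10.6% of 47 joins, and at 211 to 314 bases 43.9% of 41 joins. All 8 minus-strand joins at the last base had inserted bases, and 6 of these inserts held AGCT. These 8 joins are also counted among the 41 and the 204.

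The last base of the segment was set as the farthest base that its plus-strand reads were aligned to. That none was aligned past the last base thus follows from this definition. Of the 28 plus-strand reads whose alignment stopped there, 24 went on with at least 1 AGCT and 23 of them began the rest with the letters GCTGAGCTG. In the other direction, 40 reads placed on chromosome 12 held the first 18 bases of the segment. All 40 were placed in Sμ on the minus strand, with junctions from 114662654 to 114663706, and they came from 15 libraries. In 37 of these reads the segment started within 1 base of the end of the aligned prey, and 31 shared the same 20 bases before it. Their alignments on chromosome 12 ended at 21 different positions. There were 2 such reads in i3CBEc-3CBEdel, 10 in Iadel-i3CBEc, 16 in Iadel, 2 in i3CBEc and 10 in NCdel. The last 18 bases of the segment stood in 2 reads on chromosome 12 and their other strand in 9, and the other strand of the first 18 bases in 0. Positions in Sμ are as deposited, and in the groups with an insertion they may be shifted by the inserted sequence.

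The AGCT-repeat sites lay on chromosomes 2, 7, 10, 11, 14, 16, 17, 18, 19 and X, and their reads resemble the Sμ repeat. The prey bases of 1 read at the most used position of 5 of these sites are given from the join onward, with AGCT in capitals (mm9, 5′ to 3′ along the read).
Site 19a, minus strand, chr19:35350953-35351012: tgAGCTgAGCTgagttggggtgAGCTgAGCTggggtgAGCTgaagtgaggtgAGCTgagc
Site 16b, plus strand, chr16:95091065-95091124: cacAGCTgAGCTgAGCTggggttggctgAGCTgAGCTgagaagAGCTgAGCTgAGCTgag
Site 11b, minus strand, chr11:16195150-16195209: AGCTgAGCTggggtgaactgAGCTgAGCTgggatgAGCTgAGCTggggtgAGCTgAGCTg
Site 17b, plus strand, chr17:47301973-47302024: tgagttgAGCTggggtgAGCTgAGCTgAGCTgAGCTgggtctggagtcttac
Site 7a, plus strand, chr7:35866928-35866987: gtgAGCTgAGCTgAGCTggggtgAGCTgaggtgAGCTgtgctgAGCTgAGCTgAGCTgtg

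The word GAGCTG or its other strand stood in 94.2% of the 154 joins at these sites, against 9.21% of dispersed joins, as joins off chromosome 12 outside all sites are called. This word had defined the kind, so a high share of it, and of AGCT, followed in part from the sorting. By site, the reads held 9.80 to 12.7 AGCT per 100 prey bases, and the 5529 joins to Sμ itself held 10.3 (chr12:114662001-114664000, the 1-kb bins next to the bait with at least 5 AGCT per 100 prey bases). A run of 26 bases in common with prey reads that the authors placed on chromosome 12 was found in 141 of the 154 joins. The interquartile range of the positions at a site was 0 to 35 bases. At 8 of the 12 sites, joins farther off widened the whole span to more than 10 kb, up to 82348 bases at site 18a. Inserted bases were found at 103 of the 154 joins (66.9%), and 48 of these inserts held AGCT. Whether a read came from the site or from another AGCT repeat was not tested.

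Site 19a (chr19:35300001-35400000) had the most joins of this kind, 27 from 13 libraries, of which 24 were on the minus strand. Site 16b (chr16:95000001-95100000) held 17 joins from 10 libraries, and 16 of these were on the plus strand. Sites 11b (chr11:16100001-16200000), 17b (chr17:47300001-47400000) and 7a (chr7:35800001-35900000) held 15 joins each, from 10, 11 and 9 libraries. At site 11b 14 joins were on the minus strand and 7 fell on a single base, 16195209, all with inserted bases. At site 7a 14 joins were on the plus strand. The other 7 sites of this kind held 8 to 11 joins, and the 11 at site 18a came from 8 libraries. The strand thus followed the site, with 88 plus-strand joins among the 154.

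The repeated-sequence sites are shown by 1 read each, from the most used position of the site or, at site 9a, where each position had 1 join, from its first position, because their letters set them apart from the switch repeats.
Site 2a, plus strand, chr2:98505115-98505174: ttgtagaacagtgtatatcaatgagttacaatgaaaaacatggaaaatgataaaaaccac
Site 9a, plus strand, chr9:3000692-3000742: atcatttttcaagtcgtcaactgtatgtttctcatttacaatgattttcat
Site 5a, plus strand, chr5:137458654-137458695: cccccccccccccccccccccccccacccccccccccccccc
Site Xb, plus strand, chrX:131795958-131795984: ctcttcctccccctctttttcttcttc

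Site 2a (chr2:98500001-98600000) held 71 joins at 63 positions in 17 libraries, the most after site 14a. Its prey reads were long, with a median of 235 bases and 35.5% G or C, and 65 of the 71 shared a run of 26 bases with reads on another chromosome, 50 of them with reads on chromosome 12. The joins numbered 2 in i3CBEc-3CBEdel, 12 in Iadel-i3CBEc, 42 in Iadel, 5 in i3CBEc and 10 in NCdel. The Iadel share was 59.2%, the largest of any group at a site of at least 15 joins, while Iadel supplied 52.9% of all joins off chromosome 12, and no such site drew 80% of its joins from 1 group.

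Site Xb (chrX:131700001-131800000) was the narrowest, with 19 joins at 2 neighbouring positions, all on the plus strand, in 9 libraries. Position 131795958 held 13 joins from 8 libraries, all with inserted bases. These 13 preys were the same 27 bases, and the site held only 2 different preys in all. The group counts at this site were 7 in i3CBEc-3CBEdel, 1 in Iadel-i3CBEc, 11 in Iadel, 0 in i3CBEc and 0 in NCdel. Site 5a (chr5:137400001-137500000) held 10 joins from 10 libraries, all on the plus strand, with 7 at position 137458654 and a mean of 93.3% G or C. Site 9a (chr9:3000001-3100000) held 11 joins at 11 positions from 9 libraries, and 9 of them shared a run of bases with another chromosome.

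The 85 joins of the 7 spread sites used 83 positions, and the interquartile range of positions at a site was 1346 to 62165 bases. Both strands were used, with 44 plus-strand joins, 51.8%, against 49.6% among dispersed joins. Inserted bases were found at 12.9% of their joins, against 7.72% of dispersed joins, and a run of 26 bases in common with another chromosome at 10.6%, against 12.2% of dispersed joins. Sites where at least 50% of joins shared such a run had been sorted into the other kinds, so the last share was limited in advance. These values are descriptions of sites picked by count and carry no test.

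Site 8a (chr8:125900001-126000000) held 20 joins at 20 positions from 10 libraries. The counts were 10 in i3CBEc-3CBEdel, 0 in Iadel-i3CBEc, 5 in Iadel, 1 in i3CBEc and 4 in NCdel, and 9 of the 10 in i3CBEc-3CBEdel came from library 3 alone. Site 14c (chr14:115400001-115500000) held 16 joins from 11 libraries, of which 9 were in Iadel, with 63.0% G or C in the prey. Site 17a (chr17:39900001-40000000) held 13 joins from 8 libraries and had the highest G or C content among the spread sites, 67.9%. Site 11a (chr11:3000001-3100000) held 11 joins from 8 libraries, 7 of them in Iadel and 4 in NCdel. The Iadel share was 56.25% at site 14c and 63.6% at site 11a, while Iadel supplied 52.9% of all joins off chromosome 12. The i3CBEc-3CBEdel share at site 8a was 50%, while that group supplied 6.36% of all joins off chromosome 12. These shares carry no test.

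A microRNA gene was touched at site 14c. In 1 read of Iadel-i3CBEc library 3 (minus strand, chr14:115442852-115443082 in mm9, 231 prey bases) the prey held all 84 bases of the Mir17 hairpin, the first precursor of the miR-17-92 cluster, which is known for its role in B cell lymphoma. The RefSeq hairpin is given with the bases found in the read in capitals (sequence from the GRCm38.p6 table).
Mir17 hairpin: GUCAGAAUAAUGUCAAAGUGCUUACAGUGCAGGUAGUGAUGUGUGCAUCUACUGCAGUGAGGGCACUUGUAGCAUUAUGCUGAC

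Few reads at the sites could be tied to a gene start. Prey reads were compared with RefSeq windows of 250 bases before to 50 bases after a gene's start, by words of 30 bases found at 1 gene only. Over all joins off chromosome 12, 1278 joins shared a word with a window, but in only 231 was that gene on the chromosome where the authors had placed the read. At the 24 sites 3 joins did so, 1 each to Def8 at site 8a, Gm33862 at site 11a and L3mbtl2 at site 15a. No gene reached 3 joins at a site. A list of 30 genes known as AID off-targets or as partners of translocations in B cells included Bcl6, Pim1, Pax5 and Mir17hg. Of these 30 genes, 21 had a window, and 0 of the 21 had a window matched by a join on their own chromosome. The read with the Mir17 hairpin, described above, was not counted in this search, which saw only the windows. The windows cover only the ends of genes, and no mm9 annotation was used here, so that joins inside genes are not assigned.

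The threshold fell in a dense part of the counts. Just inside lay sites 10a (chr10:39800001-39900000), 15a (chr15:74700001-74800000) and 18b (chr18:80800001-80900000) with 8 joins each. Of the windows with 7 joins, just outside, chr16:93600001-93700000 drew them from 7 libraries, and chr16:10400001-10500000 and chr9:98500001-98600000 each from 6. In the last of these all 7 joins held GAGCTG or its other strand. At the sites 14 positions held 5 joins or more on a strand, with 177 joins in all; the choice of windows keeps most such positions out of the dispersed joins.

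**Figure D2:**
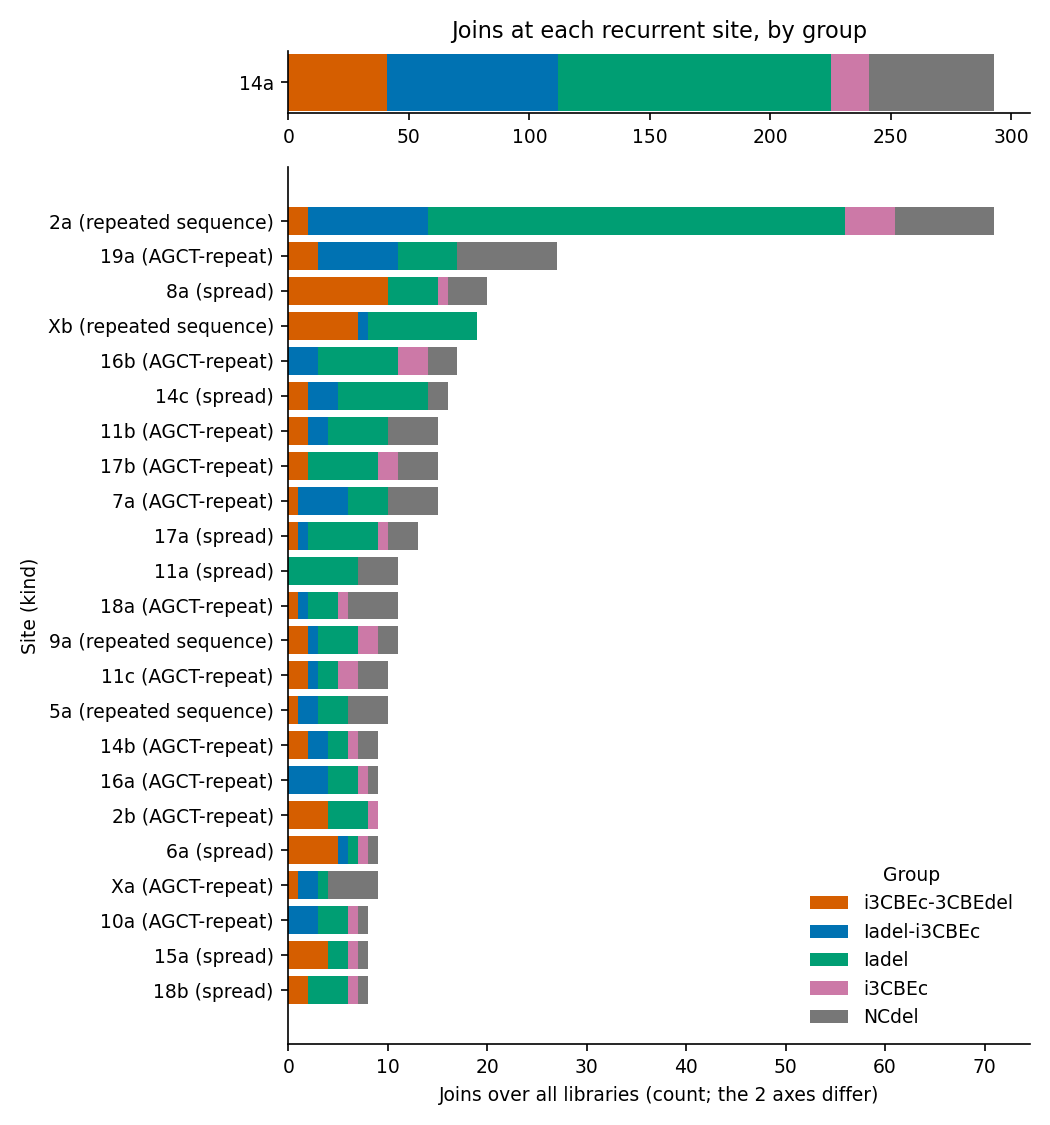
Joins over all libraries at each of the 24 sites, stacked by group in the order of the legend, with site 14a on an axis of its own. Site 14a held 293 joins, site 2a 71 and the others 8 to 27, and no site of at least 15 joins belonged to 1 group alone.

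Joins at the sites were next compared with dispersed joins of the same library in 7 measures that the choice of sites did not use. Each measure was averaged per library, and the 21 differences were tested by a two-sided sign-change permutation test with 100000 resamples, adjusted by Benjamini-Hochberg over the 7. The smallest p that these resamples can give is 1e-05, or 1.4e-05 after adjustment. The same sites recur in all libraries, so the test is over libraries and not over sites.

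Recurrent joins carried inserted bases far more often. They made up 45.1% ± 12.9 of recurrent joins and 8.94% ± 5.09 of dispersed joins (SD, n = 21 libraries), a mean difference of 36.2 points (adjusted permutation p = 1.4e-05), higher in 21 of 21 libraries. Microhomology, the bases that bait and prey share at the join, was counted as 0 for blunt joins and joins with inserted bases. Its mean was 0.883 ± 0.274 bases in recurrent joins and 2.18 ± 0.294 bases in dispersed joins, lower in 21 of 21 libraries (adjusted permutation p = 1.4e-05). Shared bases were present in 36.7% of recurrent and 64.6% of dispersed joins, pooled over libraries. The mean thus depends in part on the share of joins with inserted bases. Blunt joins, with neither, made up 18.5% ± 7.78 of recurrent and 27.6% ± 2.59 of dispersed joins, and were fewer in 19 of 21 libraries (adjusted permutation p = 0.00014). Pooled over libraries, inserts were shorter at the sites, with a median of 8 bases, against 14 bases in dispersed joins.

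These join ends differed between the kinds of site. Inserted bases were found at 42.0% of the joins in site 14a, 66.9% at AGCT-repeat sites, 45.0% at repeated-sequence sites, 12.9% at spread sites and 7.72% of dispersed joins. Without the AGCT-repeat sites the difference in inserted bases was 27.4 points, and without site 14a it was 38.1 points.

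The letters of the prey differed as well. AGCT stood 3.28 ± 1.54 times per 100 prey bases in recurrent joins and 0.558 ± 0.0374 times in dispersed joins, higher in 21 of 21 libraries (adjusted permutation p = 1.4e-05). Without the AGCT-repeat sites the difference was -0.0544 per 100 bases (adjusted permutation p = 0.29). Those sites were set apart by a word that holds AGCT, so leaving them out had to lower this value. G or C content averaged 47.1% ± 2.90 in recurrent and 45.9% ± 1.13 in dispersed joins and did not pass the test (adjusted permutation p = 0.0907), higher in 14 of 21 libraries. The recurrent minus dispersed difference was 1.14 points, and it was -2.68 points without the AGCT-repeat sites and 6.86 points without site 14a, past the threshold both times.

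Plus-strand joins made up 75.2% ± 8.20 of recurrent joins, 25.1 points ± 8.95 more than in dispersed joins, higher in 20 of 21 libraries (adjusted permutation p = 1.4e-05). Site 14a set most of this, since the difference was 9.82 points without it. A promoter word was found in 0.984% ± 1.74 of recurrent joins and 6.82% ± 1.24 of dispersed joins, lower in 21 of 21 libraries (adjusted permutation p = 1.4e-05). As given above, most such words named a gene on another chromosome than the read.

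**Figure D3:**
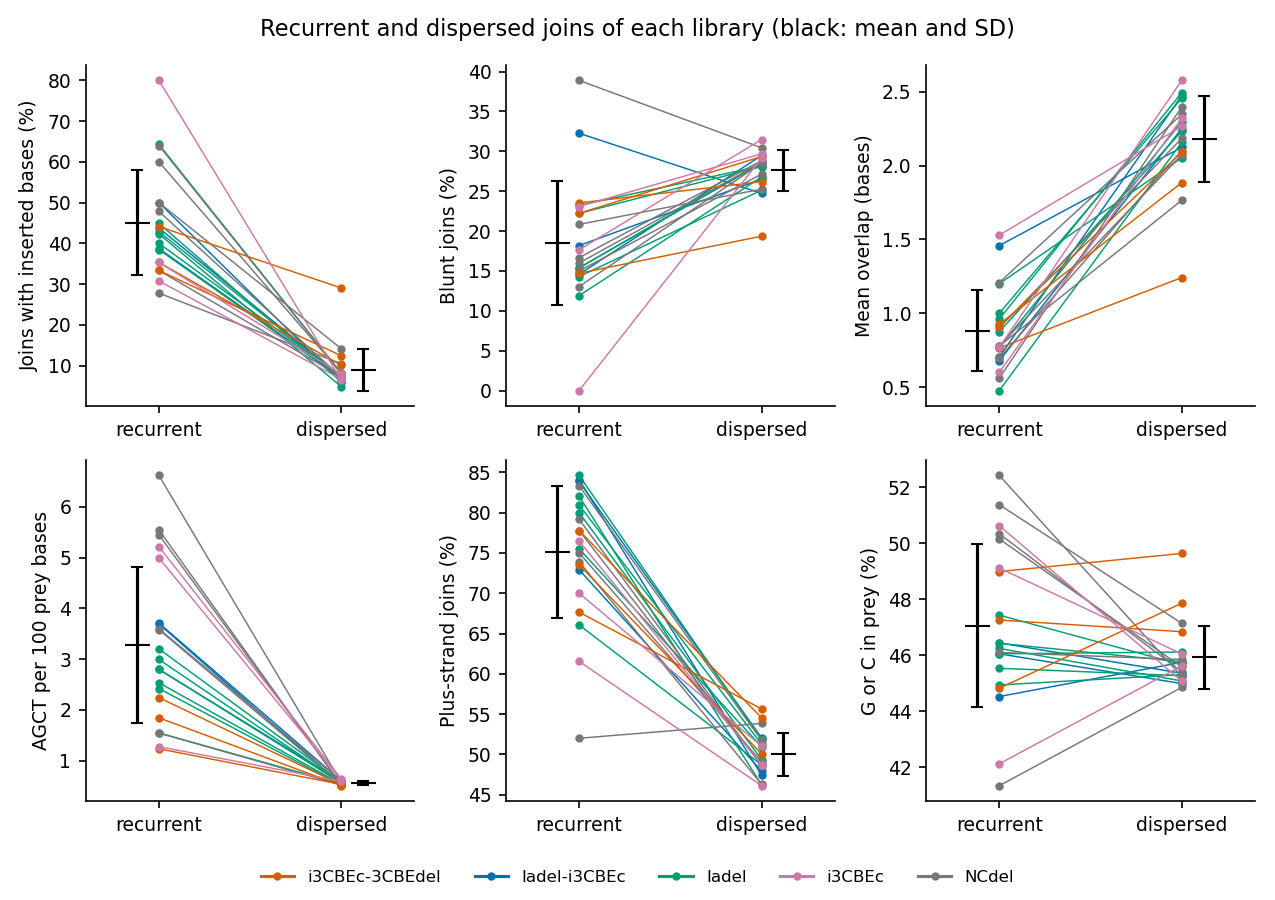
Mean of 6 measures in recurrent and dispersed joins of each library, joined by a line in the colour of the group, with the mean and SD over 21 libraries in black. The share of joins with inserted bases and the AGCT density were higher at the sites, and the mean overlap lower, in all 21 libraries, while G or C content went both ways.

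The share of joins off chromosome 12 that fell at the sites was described by group, with no test, because all libraries had chosen the sites. It was 10.0%, 4.41% and 21.5% in the i3CBEc-3CBEdel libraries 1 to 3. In the 3 Iadel-i3CBEc libraries it was 5.22%, 6.42% and 5.45%. In Iadel it ran from 1.58% over a median of 3.08% to 5.44%, in the 3 i3CBEc libraries it was 2.02%, 4.14% and 2.88%, and in NCdel it ran from 2.13% over a median of 3.38% to 5.13%. The highest value, in i3CBEc-3CBEdel library 3, rests on 34 of 158 joins, with a Wilson 95% interval of 15.8% to 28.6% that covers counting error only. As a percent of all junctions the same library had 1.92%, beside 1.70% and 1.72% in the i3CBEc-3CBEdel libraries 1 and 2, and the highest value was 2.79% in Iadel-i3CBEc library 2.

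Within Iadel the runs stood apart. Libraries 1 to 3, of run 482, had 1.76%, 1.58% and 2.41%, and libraries 4 to 6, of run 490, had 4.77%, 5.44% and 3.75%. The share of junctions off chromosome 12 went the other way, at 74.5% to 75.8% in run 482 and 51.2% to 53.2% in run 490. The part of run or of the changed denominator in this was not tested.

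To compare groups, windows were chosen again by the same rule from the libraries of the other groups only, and the share in those windows was tested by a two-sided exact permutation test, adjusted by Benjamini-Hochberg over 6 comparisons. None of the 6 passed the threshold of 0.05 after adjustment. The i3CBEc-3CBEdel libraries had 6.48% ± 2.73 (SD, n = 3) and the NCdel libraries 2.44% ± 0.894 (SD, n = 6) of their joins off chromosome 12 in 10 windows, and the groups did not overlap (exact permutation p = 0.0119, the smallest 84 splits allow, adjusted p = 0.0714). Without site 14a this difference of 4.04 points was 1.02 points, and as a percent of all junctions it was 0.323 points (exact permutation p = 0.0833, adjusted p = 0.15). The Iadel-i3CBEc libraries had 4.30% ± 0.830 (n = 3) and the Iadel libraries 2.26% ± 1.18 (n = 6) in 5 windows, with overlapping values (exact permutation p = 0.0476, adjusted p = 0.143). Here too the difference of 2.04 points was small without site 14a, at 0.27 points, within run 490 it was 1.03 points, and as a percent of all junctions it was 0.479 points (exact permutation p = 0.19, adjusted p = 0.229).

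The Iadel libraries had 2.01% ± 1.04 and the NCdel libraries 1.69% ± 0.804 (n = 6 each) in 2 windows, those of sites 14a and 2a (exact permutation p = 0.55, adjusted p = 0.55). Within run 490, with 3 libraries each, the difference was 1.59 points (exact permutation p = 0.1, the smallest possible there). As a percent of all junctions in place of those off chromosome 12, the difference over all 12 libraries was 0.648 points (exact permutation p = 0.00433, adjusted p = 0.026). The i3CBEc libraries had 2.17% ± 0.530 (n = 3) and the NCdel libraries 2.63% ± 0.848 (n = 6) in 12 windows (exact permutation p = 0.44, adjusted p = 0.529).

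With 3 libraries against 3, p cannot go below 0.1. The Iadel-i3CBEc libraries had 5.13% ± 0.507 and the i3CBEc libraries 2.39% ± 0.550 in 16 windows (exact permutation p = 0.1, adjusted p = 0.15), and did not overlap. Their difference of 2.73 points was 0.606 points without site 14a and 1.31 points as a percent of all junctions. The i3CBEc-3CBEdel libraries had 9.09% ± 6.20 and the i3CBEc libraries 2.25% ± 0.555 in 16 windows (exact permutation p = 0.1, adjusted p = 0.15), also apart, and without i3CBEc-3CBEdel library 3 the difference of 6.84 points was 3.47 points. It was 3.70 points without site 14a and 0.588 points as a percent of all junctions.

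The chromosome 14 segment held a large part of these group values, so its own counts are given. Whether its joins reached chromosome 14 itself or a copy of the segment next to AGCT repeats was not tested, and this bears on every count of site 14a and on every group value that includes it. It was joined 16, 16 and 9 times in the i3CBEc-3CBEdel libraries, 25, 24 and 22 times in the Iadel-i3CBEc libraries, 14 to 23 times with a median of 17.5 in Iadel, 4, 4 and 8 times in the i3CBEc libraries, and 3 to 14 times with a median of 8 in NCdel. As a percent of all junctions this was 0.774 ± 0.251 in i3CBEc-3CBEdel, 1.41 ± 0.201 in Iadel-i3CBEc, 0.894 ± 0.427 in Iadel, 0.428 ± 0.217 in i3CBEc and 0.437 ± 0.175 in NCdel (SD, n = 3, 3, 6, 3 and 6). Every Iadel-i3CBEc library lay above every i3CBEc and NCdel library. The Iadel mean spans both runs, with 0.495, 0.484 and 0.584 in libraries 1 to 3 of run 482, and 1.43, 1.31 and 1.06 in libraries 4 to 6 of run 490, where the Iadel-i3CBEc libraries, at 1.17, 1.52 and 1.52, overlapped with them.

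Joins to Sμ itself differed between groups too. Per 100 joins to Sμ, the segment was joined 5.93 ± 1.73 times in i3CBEc-3CBEdel, 5.21 ± 0.574 in Iadel-i3CBEc, 6.53 ± 1.09 in Iadel, 3.67 ± 2.11 in i3CBEc and 3.97 ± 1.76 in NCdel. On this scale all groups overlapped with NCdel, whose libraries ran from 2.16 to 7.01. Within run 490 the values were 4.55, 5.47 and 5.61 in Iadel-i3CBEc, 7.83, 7.01 and 5.26 in Iadel, and 2.16, 3.24 and 7.01 in NCdel. These values carry no test.

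**Figure D4:**
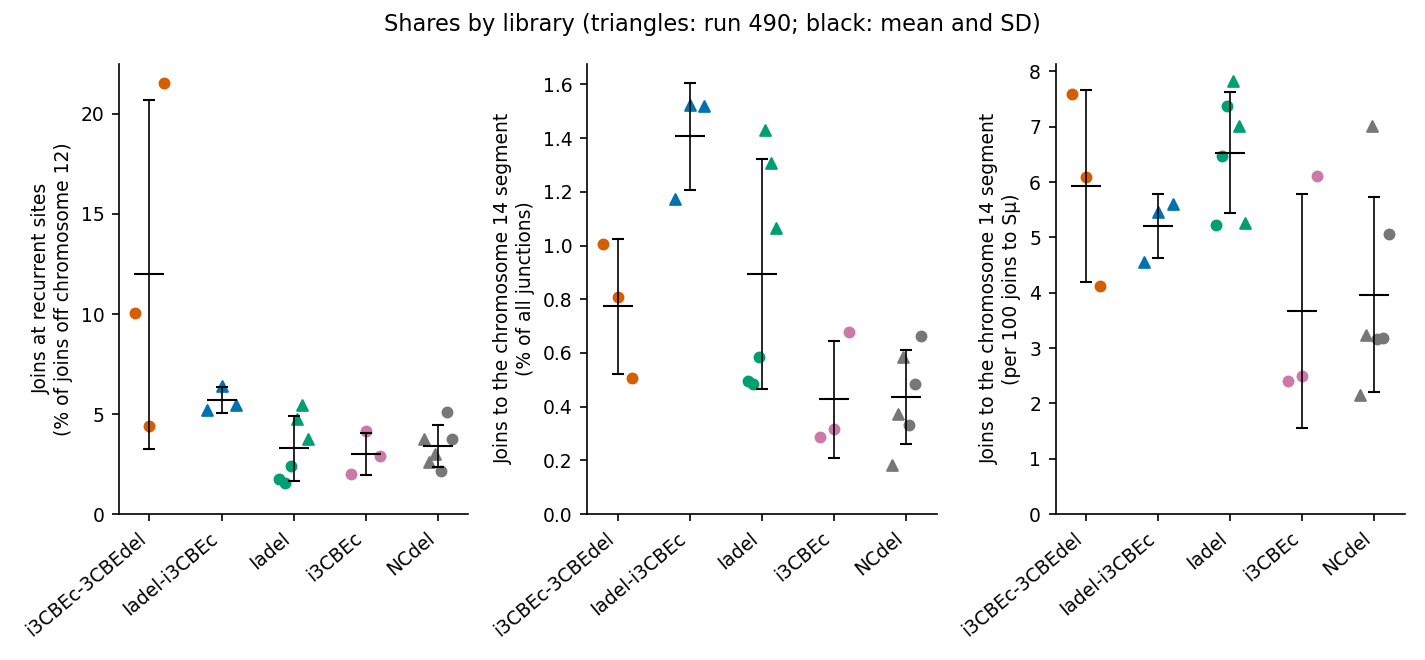
Values of each library by group, with triangles for run 490, circles for other runs, and the mean and SD in black, for the share of joins off chromosome 12 at the 24 sites, the segment's percent of all junctions and its joins per 100 joins to Sμ. The library at 21.5% is i3CBEc-3CBEdel library 3, and the groups lie closer together on the scale relative to Sμ, where NCdel runs from 2.16 to 7.01.

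The kinds of site did not share one order of groups. As a percent of all junctions, AGCT-repeat sites drew 0.336 ± 0.02 in i3CBEc-3CBEdel, 0.588 ± 0.216 in Iadel-i3CBEc, 0.381 ± 0.17 in Iadel, 0.307 ± 0.201 in i3CBEc and 0.405 ± 0.269 in NCdel, and every group overlapped with NCdel. Repeated-sequence sites drew 0.224 ± 0.0479 in i3CBEc-3CBEdel, 0.306 ± 0.089 in Iadel-i3CBEc, 0.386 ± 0.128 in Iadel, 0.188 ± 0.101 in i3CBEc and 0.142 ± 0.131 in NCdel. Spread sites drew 0.444 ± 0.407 in i3CBEc-3CBEdel, with 0.902 in library 3, 0.0967 ± 0.029 in Iadel-i3CBEc, 0.265 ± 0.182 in Iadel, 0.134 ± 0.165 in i3CBEc and 0.134 ± 0.0508 in NCdel.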

How the data were processed

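For each of the 21 CSR-HTGTS-seq libraries the authors deposited a table of junctions, 1 per line, with read and genome positions in bases, not normalised. Bowtie2 and the mm9 build are named in the submitters' processing notes, and no version or filter settings are given in the sources used here. The 8 flag columns examined were 0 in every line. From Iadel library 4, 3075 of 4614 lines were removed because their read names also stood in libraries 5 or 6. Joins off chromosome 12 were put into 100-kb windows, and windows with at least 8 joins from at least 5 libraries were kept. The overlap column ran from -10 (10 shared bases) to 30 (30 inserted bases). Within a library, 12 recurrent joins repeated a prey position, strand and bait end; they were kept. No molecular identifiers are given, so reads may be copies of 1 molecule and intervals cover counting error only. The members and lists were chosen with earlier results of these data known. Sites named are the 12 with most joins, the 6 fullest positions, those most unequal by strand or group, and 3 on each side of the threshold; others appear where a statement needed them. Tests were tried on simulated data with planted sites. Python 3.11.15, numpy 2.4.6, pandas 2.3.3 and scipy 1.17.1 were used. Replicate numbers do not pair libraries, which share numbers across runs. Alternatives covered window size, grid, threshold, duplicates, single positions, shared reads, libraries left out, run, denominator and site kinds.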

Additional observations from a re-analysis of the deposited data

How the results depend on the processing

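Apart from G or C content and AGCT density, every comparison of recurrent with dispersed joins kept its direction and side of the threshold under all alternatives run. G or C content (1.14 points) passed the threshold with 200-kb windows (1.98), with shared reads kept (1.41) and without site 14a (6.86), and was negative at a threshold of 16 joins from 10 libraries (-3.51) and without the AGCT-repeat sites (-2.68). AGCT density was -0.0544 without the AGCT-repeat sites, which had been set apart by a word that holds AGCT. Leaving out each library in turn gave 0.74 to 1.37 points for G or C content, past the threshold without NCdel library 6, i3CBEc-3CBEdel library 1 or i3CBEc library 3. The other comparisons ranged from 34.0 to 38.0 points for inserted bases, -1.35 to -1.26 bases for overlap, -9.97 to -7.92 points for blunt joins, 2.49 to 2.88 for AGCT density, 24.3 to 26.7 points for the plus strand and -6.61 to -5.64 points for promoter words. The 2 alternatives that leave out kinds of site were chosen after seeing the data.

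Of the group comparisons, Iadel against NCdel passed the threshold as a percent of all junctions (0.648) and was negative with the main list of windows (-0.117); leaving out a library gave 0.0876 to 0.577. It had no value at 16 joins from 10 libraries, as no window was left. The other ranges over libraries left out were 1.71 to 2.51 for Iadel-i3CBEc against Iadel, 2.45 to 3.02 for Iadel-i3CBEc against i3CBEc, -0.708 to -0.179 for i3CBEc against NCdel, 2.85 to 5.53 for i3CBEc-3CBEdel against NCdel and 3.47 to 9.57 for i3CBEc-3CBEdel against i3CBEc. Same-numbered libraries of the groups compared did not deviate together throughout (r from -0.958 to 0.973). Both of these extremes rest on only 3 pairs, and Iadel against NCdel, with 6 pairs, had r = 0.366. With the number as a replicate block, Iadel-i3CBEc against Iadel was 3.06 points (exact permutation p = 0.25, the smallest that 3 pairs allow), and no comparison passed. The causes of these changes were not tested. No joins lay on other contigs, so leaving those out changed nothing. Depth limits the sites of 8 to 27 joins, where a group often has 0 to 3 joins.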
